A study of Mus musculus with 2 samples.

Results

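The 5 largest CD8 T cell clones of a mouse tumour grown under a serine/glycine-free diet were compared with each other. The tumours were subcutaneous, and the mice received either control feed or feed that lacked the amino acids serine and glycine (-SG). Each diet gave 1 library of single cells, with gene expression and T cell receptor contigs read from the same barcodes. The labels state neither strain, age, tumour line nor the number of mice per library, so a clone cannot be assigned to a single animal. Their dissociation text describes human heart tissue, whereas the labelled organism is mouse and the deposited feature table lists mouse genes. The clones came from the serine/glycine-free library alone, and the control library served only to look for their receptor chains.

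Members were barcodes whose deposited clonotype was 1 of the 5 with most barcodes, whose Cd8a and Cd8b1 UMIs (unique molecule counts) together exceeded their Cd4 UMIs, and which held no Krt20, a keratin of the tumour cells. This left 104 cells of 7999 barcodes in the library and of 16465 in the series. The clonotypes held 65, 20, 15, 11 and 9 barcodes, and clones 1 to 5 kept 61, 16, 12, 8 and 7 of these. Of the 16 barcodes left out, 14 held Krt20, 3 had no more Cd8a and Cd8b1 than Cd4, and 1 of these failed both conditions. The next clonotype had 8 barcodes, 1 fewer than the fifth, and 3 members, all of clone 1, passed the CD8 condition by 1 UMI. The members were thus chosen by measured values, the clonotype sizes and the UMIs of Cd8a, Cd8b1, Cd4 and Krt20, which support nothing here. No other gene was used by the rule. The deposited clonotypes group barcodes by their receptor chains, so chains shared within a clone were set by that choice too.

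The 5 clonotypes held 48.6% of the 247 barcodes with a receptor contig, and the members were 71.7% of the 145 such barcodes that met the CD8 conditions. Members had a median of 8181.5 UMIs, and the clone medians were 7027, 10792, 6273, 7980.5 and 7323. Summed without receptor and immunoglobulin genes, the clones held 491203, 178591, 80287, 82949 and 67055 UMIs. No member barcode was among the 104 barcodes that occur in both libraries. Cells of 1 library are not replicates, so no difference between clones was tested. Levels are summed UMIs scaled to a common total per clone (CPM), and each interval is an exact 95% interval that covers counting error only. The level or share that a count of 0 allows is given as that of 3 counts, which is not an exact limit.

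CD8 T cells kill target cells with perforin and granzymes after their receptor binds peptide on MHC class I. Each naive T cell builds its own alpha (TRA) and beta (TRB) chain by joining gene segments, and its daughters inherit both, so a shared pair of chains marks descent from 1 cell. The junction, called CDR3, reaches toward the peptide. In tumours, such clones often expand while they take on the exhausted state, marked by PD-1 (Pdcd1) and the factor Tox, and cells with Tcf7 are known as the reserve that renews them.

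The clones carried the other markers of their label. Pdcd1 and Prf1 (perforin) were detected in 100 and 97 of 104 cells, and in 0.158% and 0.791% of 632 macrophage-marker barcodes of the same library, which had a median of 10699 UMIs. All 5 markers of T cells were present in every clone. The 5 markers of CD4 and regulatory cells, 1 of which (Cd4) the rule used, had a UMI in 23, 9, 4, 2 and 2 cells of clones 1 to 5 and at most 4 UMIs in any cell. Il2ra, which activated CD8 cells also express, had a UMI in 32 of the 104 cells.

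The junction sequences of the 12 chains follow, because they define the clones and show which of them are related. They are CDR3 nucleotides of the deposited contigs, 5′ to 3′, with the codons of the first and last residue in lower case and the loop between them in capitals.
Clone 1 TRA, TRAV3-3 and TRAJ13: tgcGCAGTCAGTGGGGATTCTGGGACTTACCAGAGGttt
Clone 1 second TRA, TRAV6-5 and TRAJ4: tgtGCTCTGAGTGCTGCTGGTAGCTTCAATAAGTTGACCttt
Clone 1 TRB, TRBV19 and TRBJ2-1: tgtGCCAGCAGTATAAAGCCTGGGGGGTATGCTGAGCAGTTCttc
Clone 2 TRA, TRAV3-3 and TRAJ26: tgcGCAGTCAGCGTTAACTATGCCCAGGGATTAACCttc
Clone 2 TRB, TRBV10 and TRBJ2-2: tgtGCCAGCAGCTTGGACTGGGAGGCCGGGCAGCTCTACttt
Clone 3 TRA, TRAV7-3 and TRAJ22: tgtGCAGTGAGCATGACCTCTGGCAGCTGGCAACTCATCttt
Clone 3 TRB, TRBV31 and TRBJ1-5: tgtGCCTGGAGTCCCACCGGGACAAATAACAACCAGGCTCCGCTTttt
Clone 4 TRA, TRAV13D-2 and TRAJ49: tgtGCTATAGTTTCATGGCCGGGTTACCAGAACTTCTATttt
Clone 4 TRB, TRBV2 and TRBJ1-1: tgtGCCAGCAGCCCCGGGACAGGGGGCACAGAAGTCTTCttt
Clone 5 TRA, TRAV7-3 and TRAJ22: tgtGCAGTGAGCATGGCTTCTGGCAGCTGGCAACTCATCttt
Clone 5 second TRA, TRAV12D-2 and TRAJ38: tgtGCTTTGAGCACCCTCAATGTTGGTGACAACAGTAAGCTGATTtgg
Clone 5 TRB, TRBV31 and TRBJ1-4: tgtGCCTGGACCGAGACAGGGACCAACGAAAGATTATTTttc

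In the RefSeq annotation of GRCm38.p6, the assembly behind the mm10 build named in the submitters' processing notes, the alpha segments lie on chromosome 14 and the beta segments on chromosome 6. TRAV3-3, the V segment of clones 1 and 2, is at chr14:53666005-53666506, and TRAJ13 of clone 1 at chr14:54205741-54205797. TRAV7-3 of clones 3 and 5 is at chr14:53443314-53443839, and the TRAJ22 joined to it at chr14:54197248-54197307. TRBV31, their beta V segment, is at chr6:41557693-41558371, and TRBV19 of clone 1 at chr6:41178589-41179048. RefSeq lists these as V and J segments, but TRBV10 of clone 2 as a V segment pseudogene, at chr6:41091935-41092228. Several mouse alpha V segments have near-identical copies in a duplicated stretch of the locus, so the exact copy named for a contig is uncertain.

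Clones 3 and 5 carried TRA junctions of equal length that differed by the single substitution T6A from clone 3 to clone 5, counted from 1 at the cysteine that opens the CDR3. The change rests on 2 bases of codon 6. Both clones also used TRBV31, with different beta J segments and with TRB junctions of 16 and 14 residues. Among the 108 distinct TRA junctions of the library, 5 joined TRAV7-3 to TRAJ22, the most for any pair of segments there. In the control library, 0 of 213 did, which allows a share of up to 1.41%. The most for any pair of segments there was 3. TRAV7-3 with TRAJ22 was chosen from the serine/glycine-free library, as the pair of clones 3 and 5.

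The other 3 such chains were each in a clonotype of 1 barcode, and they are shown because they extend the likeness of clones 3 and 5. In one, the alpha junction differed from clone 3 by T6P and from clone 5 by A6P, and its TRB used the V and J segments of clone 5 with T4S, E5L and T8A. In another, the alpha junction differed from clone 3 by M5A and T6S, beside a TRB junction identical to that of clone 3 in every base. The last had a shorter alpha junction, used TRBV1 and had no more CD8 than Cd4 UMIs.
Related chain with T6P, TRA: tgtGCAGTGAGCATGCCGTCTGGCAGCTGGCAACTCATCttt
Related chain with M5A and T6S, TRA: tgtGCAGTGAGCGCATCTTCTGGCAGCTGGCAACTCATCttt

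The largest clone also had a close relative. The sixth clonotype, whose 8 barcodes all passed the CD8 condition, joined the same TRAV3-3 and TRAJ13, with the substitutions G5Q and D6Y from clone 1. Its TRB used TRBV5 in place of TRBV19 but the same TRBJ2-1, and its junction of the same length differed from clone 1 by I5Q and P7L. Of its 8 cells, 7 held a Pdcd1 and 5 a Prf1 UMI. TRAV3-3 joined TRAJ13 in 3 of 108 distinct TRA junctions of the library. In the control library 0 of 213 did, which again allows up to 1.41%. This pair of segments was likewise chosen as that of clone 1.
Sixth clonotype TRA: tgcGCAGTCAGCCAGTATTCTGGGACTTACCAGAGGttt
Sixth clonotype TRB: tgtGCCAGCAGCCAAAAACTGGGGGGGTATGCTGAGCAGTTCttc

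TRA junctions that differ by 1 residue were not limited to these clones. Over all distinct TRA junctions, 7 of 5671 pairs (0.123%) in the serine/glycine-free library and 15 of 22155 (0.0677%) in the control library were 1 substitution apart. The 7 include the pairs that clone 3, clone 5 and the related chain with T6P form with each other. For TRB the counts were 0 of 5995 and 2 of 23220. None of the 12 chains of the clones occurred in the control library. Clones 1 and 2 shared TRAV3-3 but no J segment, and 5 of their 13 alpha residues were identical.

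Every member had a receptor contig by the rule, since clonotypes are read from the contigs. The chain counts that follow were thus largely set by the choice of members. All 104 cells had the first TRA, and all but 2 cells of clone 1 had the TRB. No member had more than 1 TRB contig. The V genes in the expression matrix matched the contigs for some chains and were not read for others. Trbv19 had a UMI in 58 of 61 cells of clone 1 and in 0 of 43 others, and Trav7-3 in 19 of 19 cells of clones 3 and 5 and in 0 of 85 others. Trbv31 was found in the same 19 cells and in 1 of the other 85. Trav3-3 was found in 76 of 77 cells of clones 1 and 2 and in 0 of 27 others, and Trbv2 in 8 of 8 cells of clone 4 and in 0 of 96 others. Trbv10 had no UMI in the 16 cells of clone 2, Trav13d-2 none in the 8 of clone 4 and Trav12d-2 none in the 7 of clone 5, and the 1 UMI of Trav12d-2 was in clone 3. Trav6-5 was read in 1 of 61 cells of clone 1, although 38 had its contig.

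Contig UMIs per cell measure how much receptor RNA was read. The first TRA had medians of 23, 27, 24.5, 22 and 27 UMIs in clones 1 to 5, with a lowest of 3 and a highest of 63, both in clone 1. The TRB had medians of 31, 34, 25.5, 19.5 and 40. Within cells, the median ratio of TRB to first TRA UMIs was 1.18, 1.03, 1.06, 0.933 and 0.927, and single cells ran from 0.364 to 3.33, both in clone 1. All 7 cells of clone 5 had 35 to 61 TRB UMIs, a range that overlapped with the upper cells of every other clone.

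**Figure D1:**
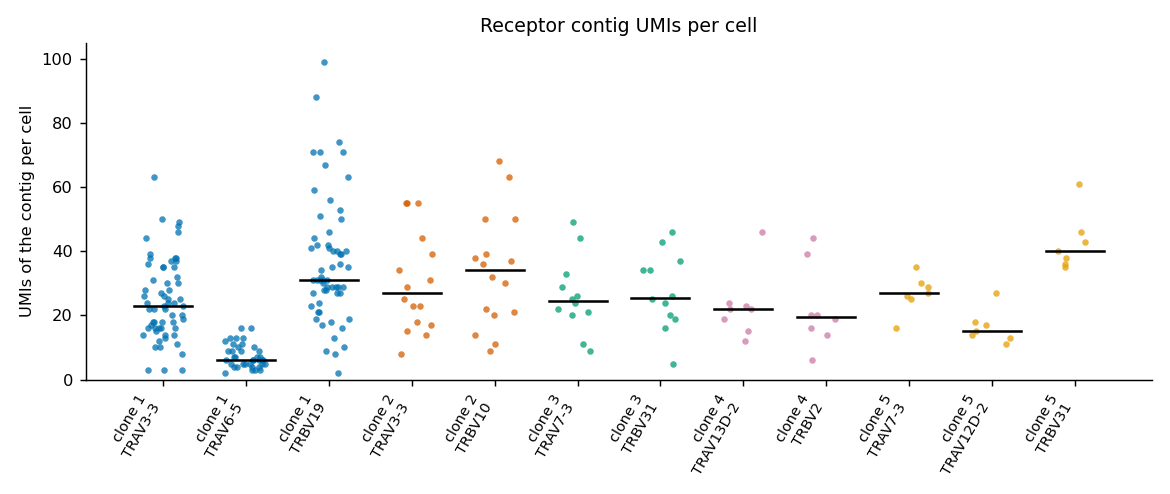
UMIs of each receptor contig per cell (vertical axis) for the 12 chains of clones 1 to 5 (horizontal axis, by V segment); each point is 1 cell and the black line the median. The second TRA of clone 1 (TRAV6-5, median 6) lies below the first TRA of every clone, and that of clone 5 (TRAV12D-2, median 15) lies between.

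The second alpha chains of clones 1 and 5 differed in how often and how strongly they were read. In clone 1 the TRAV6-5 chain was found in 38 of 61 cells (62.3%, exact binomial interval 49.0 to 74.4%), with a median of 6 UMIs and a range of 2 to 16. In clone 5 the TRAV12D-2 chain was found in all 7 cells, with a median of 15 UMIs and a range of 11 to 27. Recovery in clone 1 moved with depth: 15 of the 30 shallower cells and 23 of the 31 deeper cells had it, and cells with it had a median of 8572 UMIs against 5031 without it. The share of cells that carry this chain unread was not tested.

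Within clone 1, 41 of 1172 measured genes (3.5%) lay past 2-fold between cells with and without the second TRA, after 2 cells with RNA of other cell types were left out. Of these, 33 were higher with it (2.82%) and 8 lower (0.683%). The 5 highest ratios were those of Ube2c, Kpna2, Hist1h2ae, Cenpf and Ccna2, which are read in dividing cells. Ube2c, a mitotic ubiquitin enzyme, stood at 469 CPM with the chain and 98.5 without, and Cenpf, a kinetochore protein, at 236 and 63.3. Ube2c had a UMI in 11 of 36 cells with the chain and in 3 of 23 without. Ifitm1, an interferon-induced membrane protein, stood at 715 CPM with it and 1766 without. It had a UMI in 16 of 36 and 13 of 23 cells. Lgals7, Ccl1 and Rab8b lay further down than Ifitm1. Cells with the chain were also deeper, and the part of depth in these values was not tested.

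Some members held RNA of other cell types, which has to be seen before gene levels are read. Over the marker lists of 8 other types, 6 cells held 11 or more UMIs, and no other member more than 4. A seventh, in clone 2, held 6 UMIs of NK markers with 113 of Gzma, 107 of Gzmc and 48 of Gzmd. It also held 2 Cd8a, 5 Cd8b1 and 9 Cd3e UMIs. Gzma was present in 5 of 41 CD8 cells with a receptor contig outside the clones. Whether the NK markers and granzymes of this cell came from another cell was not tested. In clone 4, 1 cell carried 813 UMIs of macrophage markers, all 9 of them detected, of which Lyz2 gave 278. The 7 cells lay in clone 1 (2 cells), clone 2 (3), clone 4 (1) and clone 5 (1), none in clone 3, and held 16.3% of all member UMIs. Values are over all members unless stated, and those without the 7 cells are given where they bear on a result, a choice made after the data were seen. Neutrophil markers were at 0 in all 104 members, the 7 cells included. Macrophage markers had a UMI in 19, 3, 3, 2 and 0 cells of clones 1 to 5, so low counts of other types remained.

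A gene was called measured in a clone where its count, or the count expected from the other 4 clones, reached 20, and past 2-fold on the scale of CPM plus 5. Against the other 4 clones summed, clone 1 had 157 of 3854 measured genes past 2-fold (4.07%), 72 higher (1.87%) and 85 lower (2.21%). Clone 2 had 47 of 1472 (3.19%), 17 higher (1.15%) and 30 lower (2.04%). Clone 3 had 21 of 650 (3.23%), 5 higher (0.769%) and 16 lower (2.46%). The share was highest in clone 4. Clone 4 had 57 of 692 (8.24%), 43 higher (6.21%) and 14 lower (2.02%), and clone 5 had 20 of 531 (3.77%), 14 higher (2.64%) and 6 lower (1.13%). Depth set how many genes could be measured, so these counts are not comparable between clones.

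Without the 7 cells clone 1 had 57 genes higher (1.68%) and 68 lower (2.01%), 3.69% in all. Clone 2 had 15 (1.38%) and 21 (1.93%), 3.31% in all, and clone 3 had 5 (0.767%) and 12 (1.84%), 2.61% in all. The excess of higher genes in clone 4 shrank, to 17 (3.36%) against 9 lower (1.78%), 5.14% in all. Clone 5 had 10 (2.41%) and 9 (2.17%), 4.58% in all. Of those higher in all members, 32 of 72, 9 of 17, 5 of 5, 12 of 43 and 7 of 14 were also higher without the 7 cells. In clone 4, 35 of the 43 higher genes had over 50% of their UMIs in 1 cell. The leading genes of that clone over all members were Ccl8, C1qb, C1qa, C1qc and Apoe, which are genes of macrophages, and those of clone 2 were Gzma, Gzmc and Gzmd, which lay in the cell with NK markers.

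**Figure D2:**
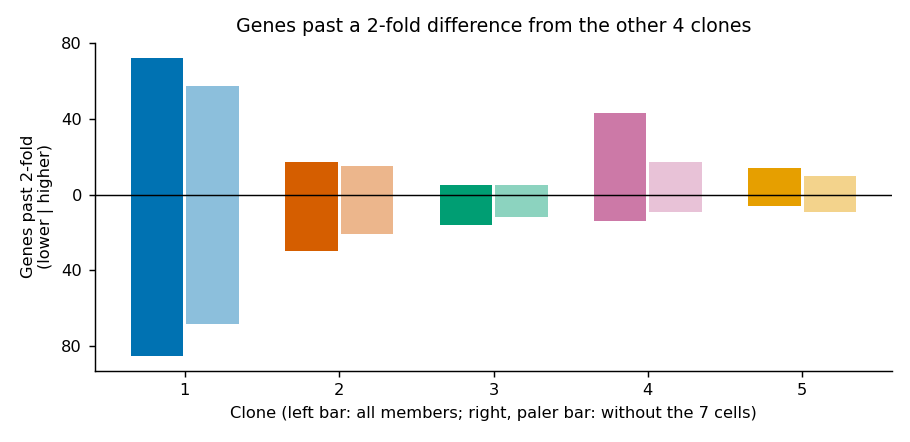
Number of measured genes past a 2-fold difference from the other 4 clones (vertical axis, higher above 0 and lower below) for clones 1 to 5 (horizontal axis), over all members (left bars) and without the 7 cells that hold RNA of other cell types (right, paler bars). In clone 4 the genes higher go from 43 to 17; in clone 3, which holds none of the 7 cells, they stay at 5.

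Cytotoxic genes summed to similar levels in the 5 clones, while single genes differed. The list of 20 (perforin, granzymes, death ligands, granule proteins and their protectors) stood at 6531, 8321, 6938, 5521 and 7934 CPM in clones 1 to 5, and at 7256, 7599, 6938, 6298 and 7411 without the 7 cells. Over all members 3 of 15 were higher past 2-fold in clone 2 (Gzma, Gzmc and Gzmd) and 1 of 7 in clone 5, and 4 of 16, 1 of 7 and 2 of 8 were lower in clones 1, 3 and 4. The shares over all genes were 1.15% and 2.64% higher in clones 2 and 5, and 2.21%, 2.46% and 2.02% lower in clones 1, 3 and 4. Without these cells the ratios to the other 4 ran from 0.86 (0.78 to 0.96) in clone 4 to 1.07 (0.99 to 1.14) in clone 2. Of the 7 to 13 measured members per clone, Gzmb was then higher past 2-fold in clone 5 and lower in clones 1 and 3, Cst7 was lower in clone 4 and Ifng in clone 5. Over all genes 2.41% were higher in clone 5, and 2.01%, 1.84%, 1.78% and 2.17% lower in clones 1, 3, 4 and 5. The list medians were 0.16, 0.09, −0.16, −0.24 and −0.60 (log2) in those cells, so in clone 5 the median was low while 1 granzyme was high.

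Perforin, which opens pores in the target membrane, was highest in clone 2. Prf1 stood at 696, 1019, 548, 446 and 597 CPM in clones 1 to 5, and at 779, 1235, 548, 459 and 525 without the 7 cells. Every cell of clones 2 to 5 held a Prf1 UMI, as did 54 of 61 of clone 1. The ratio of clone 2 to the other 4 was 1.77 (1.47 to 2.13) without the 7 cells, which does not reach 2-fold. Single cells overlapped across all clones, from 0 to 3320 CPM in clone 1 and from 87.5 to 3333 in clone 2.

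Granzyme B, the protease that perforin lets into the target, followed another order. Gzmb stood at 342, 924, 311, 651 and 2237 CPM, and in 28 of 61, 12 of 16, 8 of 12, 7 of 8 and 6 of 7 cells. After each cell was thinned to 2000 UMIs, 18 of 59, 8 of 16, 7 of 12, 5 of 8 and 5 of 7 cells kept a UMI, against 0.791% of the macrophage-marker barcodes unthinned. Clone 5 stood above the other 4 by a ratio of 4.52 (3.73 to 5.47), and by 3.51 (2.78 to 4.41) without the 7 cells. Of its 150 UMIs, however, 61 were in 1 cell. That cell is not among the 7, so its 61 UMIs were part of the 96 left without them. The lowest levels, in clones 1 and 3, had overlapping counting intervals.

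Further genes of the list differed in 1 clone or were even. Cst7, which encodes cystatin F, an inhibitor of granule proteases, stood at 542, 594, 648, 217 and 432 CPM, and clone 4 lay at 0.39 (0.23 to 0.63) of the others. Serpinb6b, a serine protease inhibitor, stood at 289, 235, 187, 108 and 134 CPM, highest in clone 1. Ifng, the effector cytokine interferon gamma, stood at 436, 437, 386, 446 and 224 CPM, and clone 5 lay at 0.52 (0.29 to 0.87), beside its high Gzmb. Nkg7, a granule membrane protein, was even, at 1991, 1820, 2578, 1640 and 2312 CPM.

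**Figure D3:**
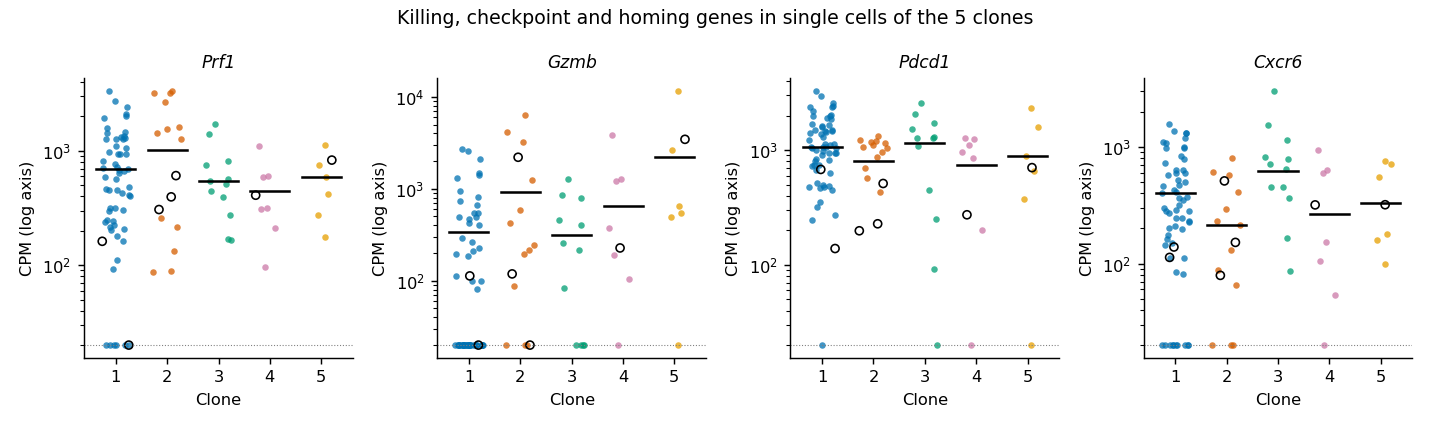
CPM per cell (vertical log axis; cells without a UMI drawn at 20 CPM, dotted line) of Prf1, Gzmb, Pdcd1 and Cxcr6 in clones 1 to 5 (horizontal axis). Filled points are the 97 other cells, open circles the 7 cells with RNA of other cell types, and black lines the CPM of the summed clone; the Gzmb line is highest in clone 5 (2237 CPM) and the Cxcr6 line in clone 3 (623 CPM).

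Checkpoint and exhaustion genes were shared by all 5 clones and were lowest in sum in clone 3. The list of 22 stood at 4068, 3584, 3313, 3846 and 4444 CPM, and at 4502, 4356, 3313, 4609 and 4727 without the 7 cells, where clone 3 lay at 0.74 (0.65 to 0.83) of the rest. Of its 7 measured members, 2 were then lower past 2-fold, Nr4a2 and Bhlhe40, against 1.84% of all genes, and none higher. The median of these 7 was −0.67 (log2). In clone 1, Ikzf2 was higher and Irf4 lower of 15 measured members, and in clone 4 Rgs16, a brake on chemokine receptor signals, was higher of 8. Over all genes 1.68% were higher and 2.01% lower in clone 1, and 3.36% higher in clone 4. Over all members no measured gene of the list was past 2-fold in clones 2 to 5.

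PD-1 itself did not separate the clones by 2-fold. Pdcd1 stood at 1055, 795, 1146, 735 and 895 CPM, in 60 of 61, 16 of 16, 11 of 12, 7 of 8 and 6 of 7 cells. Tox, the factor that drives the exhausted program, stood at 385, 319, 349, 350 and 432 CPM, and every clone's ratio to the others had an interval that held 1. The receptors Lag3 (275, 235, 286, 289 and 209 CPM) and Tigit (415, 381, 286, 277 and 477 CPM) did not reach 2-fold in any clone either.

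Among the factors on this list, 4 were read at different levels in single clones. Nr4a2, a nuclear receptor induced by receptor signals, stood at 485, 347, 262, 591 and 820 CPM. Clone 5 lay at 1.85 (1.37 to 2.46) and clone 3 at 0.53 (0.32 to 0.82) of the others. Bhlhe40, a factor of cytokine production, stood at 454, 454, 212, 362 and 209 CPM, low in clones 3 and 5 alike. Ikzf2, which encodes Helios, stood at 95.7, 33.6, 24.9, 24.1 and 74.6 CPM, and clone 1 lay at 2.61 (1.43 to 5.02). Irf4, a factor that scales with receptor signal strength, had 44 UMIs in all and stood highest in clone 5 (164 CPM), where they came from 2 cells.

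The summed list of naive and memory genes was highest in clone 3, but its members did not move together. The list of 15 stood at 1181, 935, 1868, 952 and 969 CPM, and clone 3 lay at 1.72 (1.44 to 2.05) of the others. In clone 3, 3 of its members were measured, and 1 was higher past 2-fold, against 0.769% of all genes. That gene was Ccr7, the receptor that guides cells to lymph nodes, at 65.1, 44.8, 361, 0 and 0 CPM. In clone 3 its 29 UMIs lay in 2 of 12 cells, 16 of them in 1, so its level is that of a pair of cells of the clone. The chemokine Xcl1 gave a further 635 CPM of the sum, while Klf2 was lowest in clone 3, at 49.8 CPM.

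Other members of the list rested on more cells. Xcl1, a chemokine that draws cross-presenting dendritic cells, stood at 409, 190, 635, 229 and 119 CPM. It was high in clones 3 and 1, though 102 of the 201 UMIs of clone 1 were in 1 cell, and low in clones 2 and 5, at 0.49 (0.33 to 0.70) and 0.33 (0.14 to 0.65). Bcl2, a survival factor, stood at 263, 168, 411, 265 and 298 CPM. Klf2, a factor of circulating cells, ran the other way, at 175, 308, 49.8, 289 and 328 CPM, with 4 UMIs in clone 3. Clone 2 stood at 130 CPM without the 7 cells, and 17 of the 22 UMIs of clone 5 were in 1 cell. Klf2 was also present in 82.1% of macrophage-marker barcodes, and its part in these levels was not tested.

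The reserve factor Tcf7 was nearly absent from the clones. It gave 5 UMIs in 2 cells of clone 2 and 0 in the other 4 clones. The 41 other CD8 cells with a receptor contig gave 11 UMIs in 9 cells, so the clones together lay at 0.12 (0.03 to 0.37) of them. S1pr1, which lets T cells leave lymph nodes, was at 0 in all clones.

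Homing and residency genes were even as a list and varied in a few members. The list of 27 stood at 3263, 3292, 3699, 3255 and 3117 CPM, and each clone's ratio lay between 0.94 and 1.14. Over all members 1 of 16 measured was higher past 2-fold in clone 1 (Itga1), against 1.87% of all genes, and 1 of 7 in clone 3 (Ccr7), against 0.769%. None of the measured members was lower in any clone. Cxcr6, a receptor that holds T cells near ligand-bearing myeloid cells, stood at 405, 213, 623, 265 and 328 CPM, and every cell of clone 3 held it. Clone 3 lay at 1.82 (1.32 to 2.46) and clone 2 at 0.52 (0.36 to 0.74) of the others.

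Among the 5 clones, Itga1, the collagen-binding integrin of tissue-resident cells, was read almost in clone 1 alone. It stood at 44.8, 5.60, 0, 0 and 0 CPM, in 15 of 61 cells of clone 1 and 1 of the 43 others. After thinning to 2000 UMIs the counts were 9 of 59 and 0 of 43. Of the 41 other CD8 cells, 4 held Itga1, at 21.3 CPM. The counts of 0 allow up to 37.4, 36.2 and 44.7 CPM in clones 3, 4 and 5, so those clones cannot be placed far below clone 1 at this depth. Ccr8, a chemokine receptor, stood at 159, 129, 125, 60.3 and 44.7 CPM, highest in clone 1. Itgae, the integrin of cells in epithelium, was at 0 in all 5 clones.

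S phase genes were lowest in clone 5. The S phase list of 22 stood at 2278, 2111, 2117, 2652 and 1387 CPM. Clone 5 lay at 0.61 (0.49 to 0.75) of the others, and at 0.42 (0.32 to 0.56) without the 7 cells. In those cells Dut, which keeps uracil out of DNA, stood at 472, 521, 523, 508 and 156 CPM and was the 1 member measured in clone 5, and lower past 2-fold. Per cell the S phase sum ran from 0 to 5012 CPM in clone 1 and from 189 to 2557 in clone 5.

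The G2 and mitosis list of 22 stood at 2339, 2749, 1544, 2327 and 1268 CPM. Without the 7 cells it stood at 2626, 3719, 1544, 1164 and 1556, and the ratio of clone 4 to the others went from 1.03 (0.88 to 1.19) to 0.44 (0.35 to 0.56). Clone 2 then lay at 1.65 (1.48 to 1.83) of the others, and Aurkb, Top2a, Nusap1 and Mki67, 4 of its 8 measured members, were higher past 2-fold, against 1.38% of all genes measured in it. Over all members this was 1 of 9 (Aurkb), against 1.15%. Clone 4 held 1 cell with macrophage RNA and 5551 CPM of the list, more than any other cell of that clone.

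Mki67, the proliferation antigen, stood at 218, 375, 87.2, 338 and 104 CPM, in 23, 8, 2, 4 and 3 cells. Top2a, which untangles DNA before division, stood at 200, 358, 62.3, 289 and 59.7 CPM, and clone 2 lay at 2.58 (1.86 to 3.54) without the 7 cells. Aurkb, a kinase of chromosome segregation, stood at 40.7, 112, 62.3, 48.2 and 14.9 CPM. Clones 3 and 5 were low for Mki67 and Top2a. The list was at 0 in 21 of 61, 3 of 16, 4 of 12, 1 of 8 and 2 of 7 cells, and the per-cell medians were 235, 674, 265, 539 and 160 CPM.

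**Figure D4:**
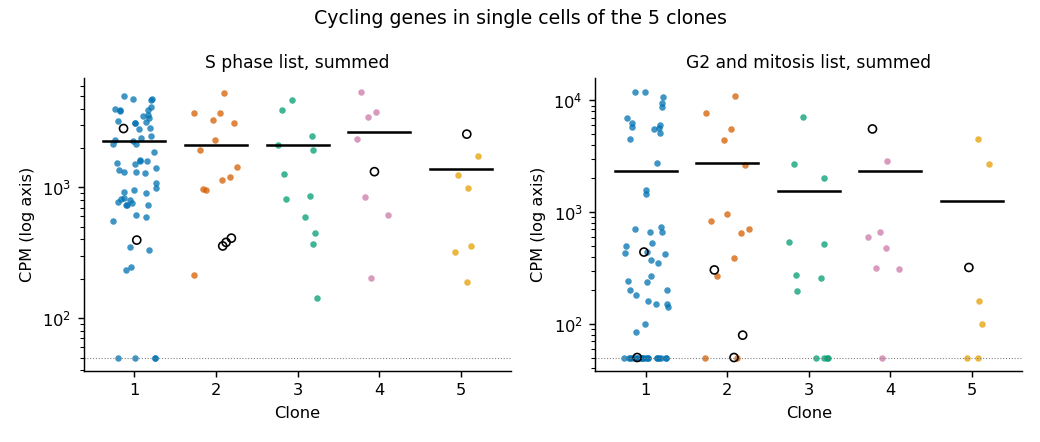
Summed CPM per cell (vertical log axis; cells under 50 CPM drawn at the dotted line) of the S phase list and of the G2 and mitosis list in clones 1 to 5 (horizontal axis). Filled points are the 97 other cells, open circles the 7 cells with RNA of other cell types, and black lines the summed clone; G2 and mitosis values spread from 0 to 11958 CPM in clone 1 alone.

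Ifitm1, a small membrane protein induced by interferon, was among the genes higher in clone 1, at a log2 ratio of 2.68, below Zfpm2 (3.26) and Itga1 (2.74). Without the 7 cells Zfpm2 had no UMI in clone 1, and Lgals7 (3.10) stood above Ifitm1 (3.02). Ifitm1 stood at 951, 190, 112, 0 and 239 CPM, in 31 of 61, 4 of 16, 1 of 12, 0 of 8 and 1 of 7 cells, and in 21 of 59, 3, 1, 0 and 1 after thinning. Clone 1 lay at 6.59 (5.02 to 8.79) of the others, and at 8.37 (6.07 to 11.8) without the 7 cells, where clone 5 stood at 0. Clone 4 held none, which allows up to 36.2 CPM. In clone 1 it was present in some cells and absent in others, with 30 of 61 cells at 0 and the highest at 6607 CPM. Tumour barcodes with Krt20 and no Ptprc held 216 CPM of it, macrophage-marker barcodes 127 CPM and the 41 other CD8 cells 371 CPM.

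Its relatives next to it on chromosome 7 had an order that moved with the 7 cells. Ifitm1 lies at chr7:140967429-140969827, between Ifitm2 at chr7:140954837-140959686 and Ifitm3 at chr7:141009590-141010744, in the RefSeq annotation. Without the 7 cells Ifitm3 stood at 848, 383, 461, 164 and 38.9 CPM and Ifitm2 at 493, 322, 299, 197 and 38.9 CPM, both highest in clone 1 and lowest in clone 5. Over all members Ifitm3 stood at 1000, 941, 461, 555 and 432 CPM and Ifitm2 at 570, 762, 299, 434 and 418 CPM, so Ifitm2 was then highest in clone 2. Macrophage-marker barcodes held 3032 CPM of Ifitm3, and the part of free RNA was not tested.

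Pkp3, which encodes the junction protein plakophilin 3 and begins 108402 bases beyond the end of Ifitm1, had another order. At chr7:141078229-141090511, it stood at 0, 61.6, 187, 0 and 0 CPM, in 0 of 61, 7 of 16, 9 of 12, 0 of 8 and 0 of 7 cells. A count of 0 in clone 1 allows up to 6.11 CPM and up to 4.92% of its cells. Macrophage-marker barcodes held it in 2.22%, tumour barcodes in 11.7%, and the 41 other CD8 cells in 26.8%. Of the 104 cells, 37 held Ifitm1, 16 Pkp3 and 3 both. The interval was looked at after these values were seen. Psmd13, Sigirr, Rnh1 and Hras, neighbours in the same interval, were read in every clone, and Sirt3, with 22 UMIs in all, in every clone but clone 4.

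Clone 1 was also highest in Cd5 and in some genes of the interferon response. Cd5, a brake on receptor signalling whose level follows signal strength, stood at 136, 56.0, 12.5, 36.2 and 29.8 CPM, in 38, 8, 1, 2 and 2 cells. Clone 1 lay at 3.49 (1.998 to 6.44) of the others, and at 4.13 (2.21 to 8.39) without the 7 cells. Macrophage-marker barcodes held no Cd5. The 41 other CD8 cells held 128 CPM, near the level of clone 1. Of 12 measured members of the receptor signalling list in clone 1, Cd5 was the 1 past 2-fold, against 1.87% of all genes higher, and a count of 1 says nothing of the list. Of 12 measured members of the interferon list, 5 were higher in clone 1 (Gbp2, Gbp4, Ifit1, Igtp and Rsad2), against 1.87% of all genes. The count was 3 of 10 (Ifit1, Igtp and Irf7) without the 7 cells, against 1.68%. In both counts was Igtp, an interferon-inducible GTPase, at 91.6, 11.2, 49.8, 36.2 and 29.8 CPM.

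**Figure D5:**
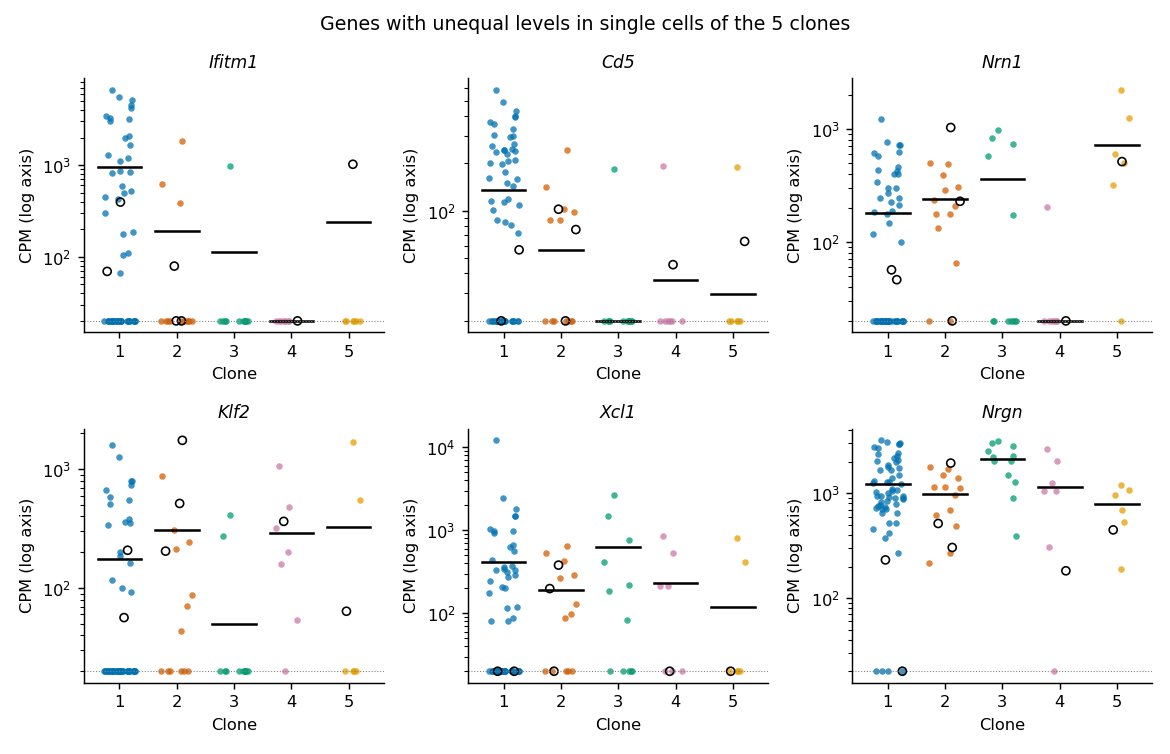
CPM per cell (vertical log axis; cells and lines under 20 CPM drawn at the dotted line) of Ifitm1, Cd5, Nrn1, Klf2, Xcl1 and Nrgn in clones 1 to 5 (horizontal axis). Filled points are the 97 other cells, open circles the 7 cells with RNA of other cell types, and black lines the summed clone; Ifitm1 is highest in clone 1 (951 CPM), Nrn1 in clone 5 (716 CPM) and Nrgn in clone 3 (2130 CPM).

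A pair of genes best known from neurons, and known also in exhausted T cells, had different orders. Nrn1 (neuritin) stood at 179, 241, 361, 12.1 and 716 CPM, in 28, 13, 5, 1 and 6 cells, with 1 UMI in clone 4. Clone 5 lay at 3.70 (2.63 to 5.14) and clone 4 at 0.05 (0.00 to 0.27) of the others. Nrgn (neurogranin), which binds calmodulin, stood at 1221, 985, 2130, 1157 and 790 CPM, in all cells of clones 2, 3 and 5. Clone 3 lay at 1.89 (1.59 to 2.22) of the others, with a per-cell median of 2127 CPM against 999 in clone 1.

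The inflammatory chemokines Ccl3, Ccl4 and Ccl5 were highest in clone 4 over all members, with over 50% of the UMIs of each in 1 cell. Ccl4 stood at 943, 543, 324, 3629 and 925 CPM, and 159 of the 301 UMIs of clone 4 were in 1 cell. Ccl5 stood at 364, 521, 137, 1423 and 298 CPM, with 80 of 118 UMIs in 1 cell. Ccl3 stood at 112, 95.2, 37.4, 699 and 328 CPM, with 45 of 58 in 1 cell. Clone 3 was lowest in all 3. The 7 cells did not carry these levels: without them clone 4 stood at 3657 (Ccl4), 1903 (Ccl5) and 755 CPM (Ccl3), and clone 5 at 428 CPM of Ccl3. Without the cell with most of each gene, the log2 ratio of clone 4 went from 2.19 to 1.45 for Ccl4, from 1.93 to 0.82 for Ccl5 and from 2.51 to 1.04 for Ccl3. Macrophage-marker barcodes held 2958 CPM of Ccl4 and 703 of Ccl3. The 41 other CD8 cells held 1407 CPM of Ccl4, 1411 of Ccl5 and 213 of Ccl3. Spp1, osteopontin, stood at 2197, 1125, 1208, 277 and 1223 CPM, and without the 7 cells at 1146, 767, 1208, 377 and 292.

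Clone 3 held a few further genes at higher levels. Txnip, an inhibitor of glucose uptake, stood at 197, 134, 448, 48.2 and 119 CPM, and clone 3 lay at 2.76 (1.86 to 4.02). Nucb1, a calcium-binding Golgi protein, stood at 147, 146, 336, 121 and 104 CPM. Cd81, a tetraspanin, stood at 147, 157, 311, 241 and 29.8 CPM. These 3 with Ccr7 and Phb, a mitochondrial scaffold protein, were the 5 genes higher in clone 3 with and without the 7 cells.

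Glycolytic and costimulatory genes did not separate the clones over all members. The 17 glycolysis genes, of which 9 to 15 were measured per clone, and the 13 costimulation genes, of which 2 to 9 were measured, had none past 2-fold in any clone. Ldha, lactate dehydrogenase, stood at 1712, 1501, 1619, 1567 and 1745 CPM. Of the 19 genes of serine, one-carbon and amino acid metabolism, 12 were measured in clone 1, 4 in clone 2 and none in clones 3 to 5. Past 2-fold were Mthfd1l, higher in clone 1 (1.87% of all genes), and Slc1a5, a glutamine transporter, lower in clone 2 (2.04%), and 1 gene each says nothing of the list. Shmt2, which makes glycine from serine in mitochondria, stood at 44.8, 56.0, 49.8, 133 and 89.5 CPM, with 8 of the 11 UMIs of clone 4 in 1 cell.

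Clones 3 and 5, whose alpha chains differ by 1 residue, differed in several of these genes. Without the 7 cells 30 of 420 measured genes (7.14%) lay past 2-fold between them. Against clone 1 the share was 4% for clone 2, 2.61% for clone 3, 5.53% for clone 4 and 5.01% for clone 5. It was 5.83% between clones 2 and 3, 7.77% between 2 and 4, and 7.62% between 2 and 5. Between clones 3 and 4 it was 8.51%, and between 4 and 5 it was 6.94%. From 419 to 1099 genes were measured per pair, so these shares are not comparable between pairs. Gzmb was higher in clone 5 by a ratio of 5.997 (3.83 to 9.72) and Nr4a2 by 2.97 (1.71 to 5.31). Most of the 96 Gzmb UMIs of clone 5 were in 1 cell. Clone 5 held less Nrgn, at 0.42 (0.30 to 0.58) of clone 3, less Xcl1, at 0.24 (0.10 to 0.52), and less Txnip, at 0.26 (0.09 to 0.62). Nrn1, high in both against the rest, was higher in clone 5 by 2.15 (1.30 to 3.60). These pairs were set out after the values of each clone were seen.

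Against the 41 other CD8 cells of the library, the 5 clones together had 30 genes higher (1.53%) and 36 lower (1.84%) of 1959 past 2-fold (3.37%). Without the 7 cells 12 were higher (0.617%) and 36 lower (1.85%), 2.47% in all. Prf1 stood at 717 CPM in the clones and 324 in the others, a ratio of 2.21 (1.74 to 2.84). Gzmb stood at 624 and 1445 CPM, so the clones lay at 0.43 (0.38 to 0.50), and within the clones only clone 5 exceeded the level of the others. Pdcd1 (ratio 1.26, 1.08 to 1.49) and Tox (1.11, 0.86 to 1.44) were near. The other cells had a median of 4679 UMIs, below that of the members.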

How the data were processed

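Per the file headers, the authors deposited filtered matrices of UMI counts per gene and barcode, and tables of receptor contigs with their clonotypes and UMI counts. The matrix header names Cell Ranger 7.1.0, whereas the submitters' processing notes list 2.2.2 with mm10. UMI counts were summed per clone without 651 receptor and immunoglobulin genes of 32285 and scaled to a common total (CPM). A gene was measured in a clone with a count, or expected count, of 20. Ratios used a pseudocount of 5 CPM for calls past 2-fold. Intervals were exact Poisson, conditional binomial or Clopper-Pearson at 95%. The value allowed by a count of 0 was that of 3 counts. Thinning drew 2000 UMIs per cell. Scripts were tested on simulated data (Python 3.11.15, numpy 2.4.6, scipy 1.17.1, pandas 2.3.3). No doublet caller was run. The 7 cells were those with 10 or more UMIs of markers of other types, or 3 of NK markers.

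Members and gene lists were chosen with earlier results of these data known. Named genes were, per clone, the 5 highest and 5 lowest log2 ratios past 2-fold with an interval excluding 1, up to 8 members of each list with 30 UMIs and the widest range, and a fixed set of CD8, effector, exhaustion, memory, cycling and residency genes. The chromosome 7 neighbours, Klf2, Igtp, Shmt2 and other genes named outside that rule were chosen after their values were seen.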

Additional observations from a re-analysis of the deposited data

How the results depend on the processing

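No paired analysis was possible because each diet had 1 library and every comparison lay within 1 of them. Genes past 2-fold numbered 157, 47, 21, 57 and 20 in clones 1 to 5. With a minimum count of 10 they numbered 447, 164, 99, 162 and 97, and with 40 they numbered 46, 15, 7, 25 and 7, since other numbers of genes were tested. Thinned cells gave 72, 4, 7, 8 and 2. Without the Krt20 condition the counts were 289, 91, 54, 122 and 41. A pseudocount of 20 gave 70 in clone 1. With the largest clone left out of the others, clones 2 and 3 had 96 and 43, and clones defined by TRB gave 32 in clone 3. Clone 4 had 23 without the deepest cells, 23 without cells with C1q or Lyz2, and 26 without the 7 cells. Of the recomputed list medians, 266 stayed within the main interval and 7 fell outside it. Without the Krt20 condition the list medians (log2) were 0.50 (cytotoxic) and 0.61 (exhaustion) in clone 1 and −0.44 (homing) in clone 4. The G2 and mitosis median of clone 2 was 0.91 with the largest clone left out, 0.68 without the deepest cells and 0.75 without the 7 cells. The cytotoxic median of clone 4 was −0.10 without cells with C1q or Lyz2. Among the genes recomputed, 30 pairs of gene and clone were past 2-fold with an interval that left out 1. Of these pairs, 24 fell outside their main interval in an alternative, and 4 changed sign. For Ccl3 the log2 ratio changed sign in clones 1 (0.44) and 5 (−0.12) without the cell with most of it. It also did so in clone 5 (−0.90) without the deepest cells. For Ifitm1 the sign changed in clones 2 (0.78) and 5 (0.90) with the largest clone left out. Of the fixed genes, 3 were past 2-fold in any clone, against 1 (minimum 40), 6 (mean of the other clones), 5 (mean of cells), 6 (largest clone left out), 5 (without the deepest cells), 6 (no Krt20 condition) and 5 (without C1q or Lyz2). Against the other CD8 cells, 66 genes became 126 (mean of cells), 115 (no Krt20 condition) and 20 (thinned), and the Prf1 log2 ratio went from 1.13 to 1.73 without the Krt20 condition. Where no construction of the alternative shows it, the cause was not tested.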
